A study of Homo sapiens with 6 samples.

Results

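The genes described here are the ZNF genes that were well expressed in 6 RNA libraries from a human cell line. A row of the count table belonged to the set when its symbol was ZNF followed by a number and at most 1 letter, and when its mean over all 6 libraries was at least 20 CPM (counts scaled to a library total of 1000000). This gave 131 genes out of 531 ZNF symbols and 37923 genes in the table. The genes were thus selected on their measured level over all libraries, so the levels are given as a description. The labels of the groups were not used, but a gene near the cutoff could enter through the group where it was high: 6 genes had a Control mean under 20 CPM (4 of them called higher) and 9 had an ENZ mean under 20 CPM (8 of them called lower). Chosen on the Control libraries alone, the set held 141 genes with 63 falls and 19 rises, but that choice itself favours genes that are high in Control. The 116 genes of the set with both group means at the cutoff held 42 falls and 19 rises.

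The libraries fall into a Control group of 3 and an ENZ group of 3. Every sample is labelled RKO, a colorectal carcinoma line, and the series design says that the treated group received a compound called A3 that degrades the histone demethylase LSD1, with RNA taken 48 h later. The design calls the 3 libraries of a group biological replicates, but the labels do not say what separated them. The p-values therefore measure only a spread that may be technical. The sources used here do not say what Control cells received, what ENZ abbreviates, or whether the line is a single clone. The marker genes below do not settle whether the labels for the cell line and the treatment describe these libraries, so both are used here only as labels.

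ZNF is the naming prefix for proteins with zinc fingers, most of them of the C2H2 kind, in which 2 cysteines and 2 histidines hold a zinc ion and let a short helix read DNA. Many of these proteins also carry a KRAB domain, which recruits the corepressor TRIM28 (KAP1) and through it the histone methyltransferase SETDB1, heterochromatin proteins and deacetylases, and which is best known for silencing transposable elements. Their genes multiplied by tandem duplication and lie in clusters, above all on chromosome 19. Others have no KRAB domain and act as activators, as partners of chromatin complexes, or in the handling of RNA and proteins.

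Library totals ran from 26691289 to 30025543 counts, and all 131 genes passed the expression filter and were tested. In the libraries labelled RKO, genes typical of prostate luminal cells were expressed, among them FOLH1 (mean 626 CPM in Control and 857 in ENZ) and HOXB13 (157 and 193 CPM), which were higher in ENZ, and STEAP2 (274 and 131 CPM), which was lower. A list of 4 genes for RKO and other colorectal lines summed to 94.7 to 104 CPM, with GSTP1 at no more than 2 counts. The intestinal genes CDX1 and KRT20 had no more than 1 count in any library, and 5 of 9 colorectal epithelial markers were under 1 CPM. The markers of leukocytes summed to 1.57 CPM at most and those of endothelium to 0.149 CPM at most. The fibroblast list summed to 77.4 to 86.6 CPM in Control and 39.9 to 42.8 CPM in ENZ, most of it LUM, with COL1A2 at no more than 1 count, and its part in the results was not tested. KDM1A, the gene of LSD1, had 113, 110 and 115 CPM in Control and 105, 108 and 111 CPM in ENZ. The change was −0.02 on the log2 scale, with a 95% interval from −0.11 to 0.06 (adjusted p = 0.681 by edgeR). A degrader acts on the protein, so this transcript does not check the exposure.

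More ZNF genes were lower than higher in ENZ. Of the 131 genes, 50 fell and 23 rose at an adjusted p under 0.05 by the quasi-likelihood F test of edgeR, adjusted by the Benjamini-Hochberg method over all 18581 genes tested. In either direction 39.8% of all genes tested passed. The falls made 38.2% of the ZNF genes, where 19.3% of all genes tested fell, and the rises 17.6%, where 20.5% of all genes tested rose. Among the 8411 genes tested that also had a mean of at least 20 CPM, 21.1% fell and 31.6% rose. The median log2 fold change was −0.09 over the ZNF genes and −0.01 over all genes tested. The groups did not overlap in 86 of the ZNF genes (49.2% of all genes tested did not overlap). Among the 8280 other genes at 20 CPM they did not overlap in 4976. No change was large: the log2 fold changes ran from −0.71 to 0.55, none passed the limit of 1 that the series design states, and 11 of the falls and 1 of the rises were over 0.5. Summed over the set, the ZNF genes held 6066 to 6244 CPM in the Control libraries and 5572 to 5886 CPM in the ENZ libraries.

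**Figure D1:**
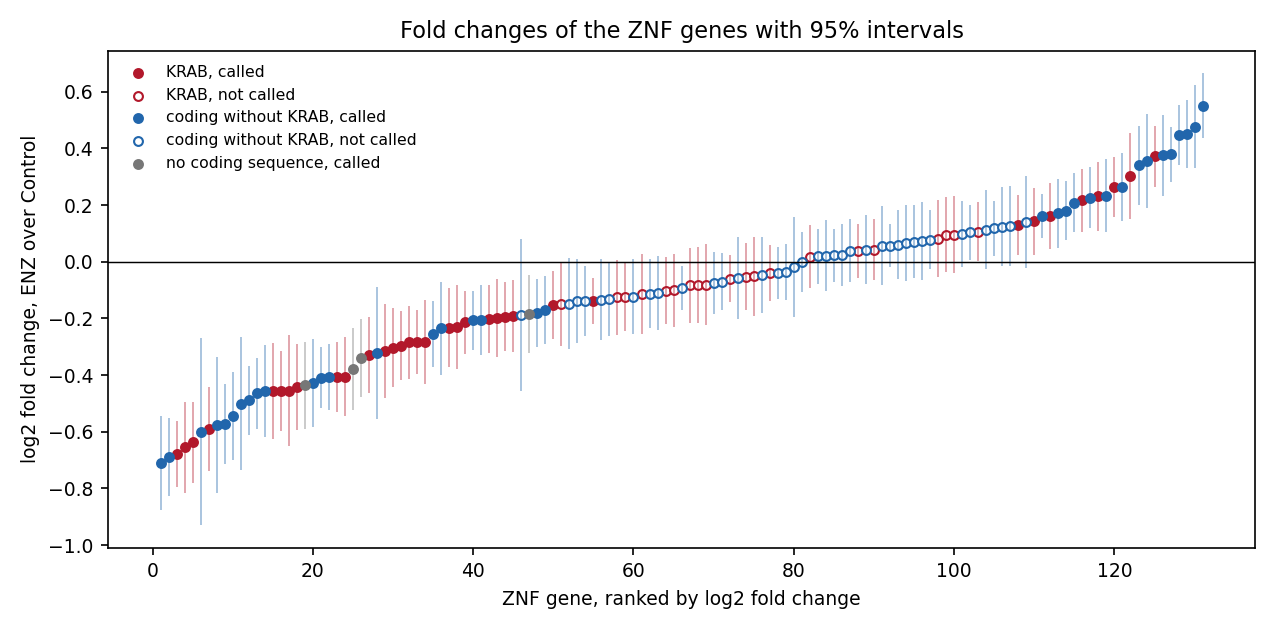
Log2 fold change (ENZ over Control, vertical axis) of each of the 131 ZNF genes in rank order, with its 95% interval as a bar. Filled points passed an adjusted p under 0.05 (50 below 0 and 23 above), open points did not, and the colour gives the class of the encoded protein.

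The library ENZ replicate 3 stood furthest from Control. It was the lowest of the 6 libraries for 59 of the 131 ZNF genes, against 17 for ENZ replicate 1 and 15 for ENZ replicate 2. The median over the set of the log2 level minus the Control mean was −0.05, −0.10 and −0.12 in ENZ replicates 1, 2 and 3, and between −0.02 and 0.01 in the Control libraries. Without ENZ replicate 3 there were 40 falls and 21 rises, and without ENZ replicate 1 there were 59 falls and 25 rises.

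The largest falls were in ZNF117, ZNF121 and ZNF107. ZNF117, on chromosome 7 (64971772 to 65006684, GRCh38), had 28.0, 23.7 and 28.7 CPM in Control and 17.5, 15.8 and 14.7 CPM in ENZ. It fell by 0.71 ± 0.080 (SE; adjusted p = 4.08e-07 by edgeR), and every ENZ library lay below every Control library. Its exons overlap those of ERV3-1, an endogenous retrovirus gene transcribed through the same locus, so its count is uncertain.

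ZNF121 (chromosome 19, 9560329 to 9584504) had 62.1, 54.8 and 57.6 CPM in Control and 38.2, 36.5 and 31.1 CPM in ENZ, a fall of 0.69 ± 0.066 (adjusted p = 1.72e-07 by edgeR). ZNF107, a KRAB gene with 16 fingers next to ZNF117 (chromosome 7, 64666099 to 64711577), had 48.9, 44.5 and 46.7 CPM in Control and 29.3, 28.5 and 27.7 CPM in ENZ. It fell by 0.68 ± 0.056 (adjusted p = 2.87e-09 by edgeR). In both genes every ENZ library lay below every Control library.

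The KRAB genes ZNF195 (−0.65 ± 0.077), ZNF141 (−0.64 ± 0.069) and ZNF43 (−0.59 ± 0.071) followed, and so did ZNF721 (−0.57), which has 23 fingers, and ZNF260 (−0.54), which has 13. ZNF678 fell by 0.60 with a wide 95% interval (−0.93 to −0.27). Its CPM was 29.9, 26.9 and 31.8 in Control and 23.9, 16.1 and 16.9 in ENZ, so ENZ replicate 1 lay nearer to Control than its other two ENZ libraries did.

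ZNF638 was the most abundant of the 10 genes with the largest falls. It encodes a nuclear protein that binds nucleic acids and works with the HUSH silencing complex. It had 125, 114 and 129 CPM in Control and 91.4, 81.2 and 68.2 CPM in ENZ, a fall of 0.58 ± 0.10 (adjusted p = 0.00368 by edgeR). The ENZ libraries spread over more than 20 CPM here but all lay below Control.

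The largest rise was in ZNF48, a gene with 12 fingers and no KRAB box on chromosome 16 (30378106 to 30400108). It had 35.7, 36.3 and 35.5 CPM in Control and 48.2, 53.1 and 52.5 CPM in ENZ, a rise of 0.55 ± 0.055 (adjusted p = 6.44e-08 by edgeR). Its neighbour ZNF768 (30524004 to 30526821), which is known to bind ancient interspersed repeats, had 64.8, 70.7 and 65.8 CPM in Control and 83.8, 93.1 and 91.2 CPM in ENZ. It rose by 0.45 ± 0.052 (adjusted p = 5.11e-07 by edgeR). The groups did not overlap in either gene. Exons of ZNF48 overlap those of SEPTIN1 on the opposite strand, so the unstranded count of ZNF48 is uncertain. Exons of ZNF768 overlap those of another gene on the same strand.

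ZNF217, on chromosome 20 (53567071 to 53609907), encodes a protein that joins the LSD1-CoREST and CtBP corepressor complexes. It had 52.7, 52.9 and 54.1 CPM in Control and 70.0, 66.1 and 66.8 CPM in ENZ, a rise of 0.38 ± 0.047 (adjusted p = 1.38e-06 by edgeR). The libraries of each group lay close together. Exons of ZNF217 overlap those of a gene on the opposite strand, which unstranded counts do not separate.

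ZNF580 rose by 0.48 ± 0.070 and ZNF704 by 0.45 ± 0.058. ZNF580 shares exons with ZNF581, so reads of the pair are not fully separable. ZNF865 (0.38), ZNF496 (0.37), ZNF385A (0.36), ZNF710 (0.34) and ZNF747 (0.30) also rose. ZNF580, ZNF865, ZNF385A and ZNF710 had Control means under 20 CPM and reached the cutoff through ENZ, as ZNF117, ZNF141, ZNF678 and ZNF260 reached it through Control. ZNF496, which carries SCAN and KRAB domains, and ZNF747 were the KRAB genes among the 10 largest rises. The rise of ZNF865 did not pass the test once GC and length offsets were fitted (0.13; adjusted p = 0.0741 in that edgeR fit).

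**Figure D2:**
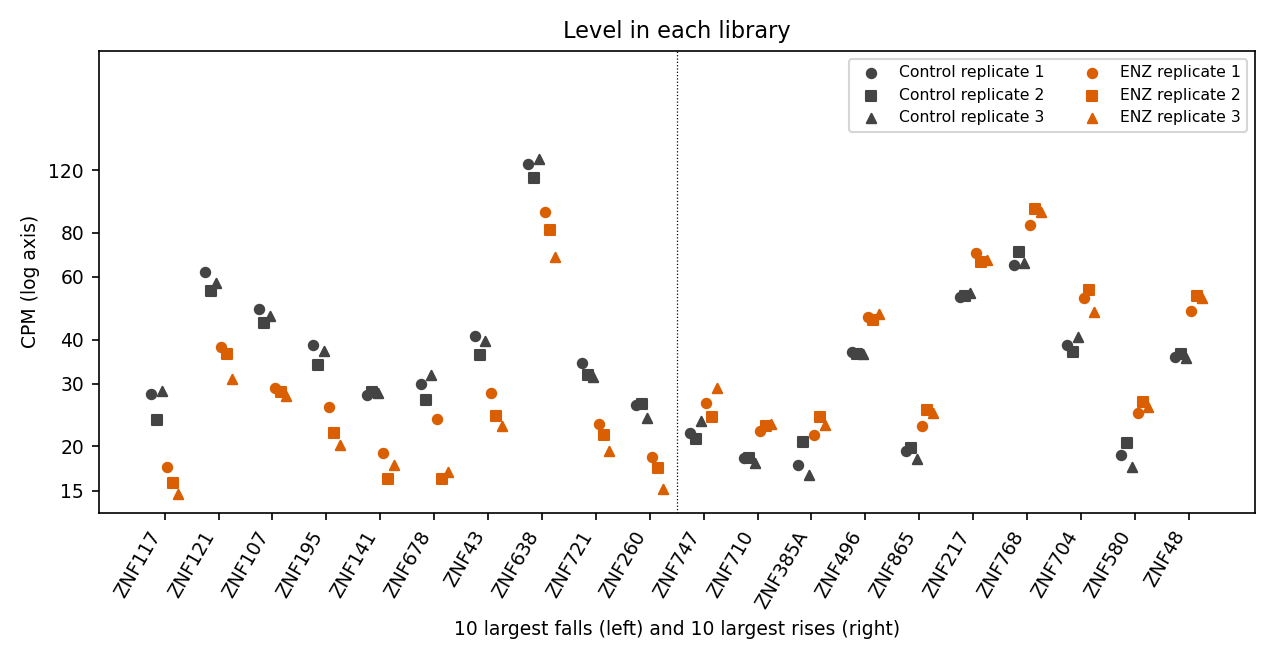
CPM of the 10 ZNF genes with the largest falls and the 10 with the largest rises (horizontal axis) in each of the 6 libraries, on a log axis. Every gene shown has 3 ENZ points on 1 side of its 3 Control points, as the rule for naming these genes asked. ENZ replicate 3 is the lowest point in each of the falls other than ZNF141 and ZNF678.

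The promoters of 4 of these genes are shown because they let the reader compare the start regions of genes that moved in opposite directions. They belong to 2 of the 10 largest rises and 2 of the 10 largest falls, with 250 bases before the RefSeq start (GRCh38.p14) that hold no annotated exon. The promoter of ZNF704, a larger rise, is not shown here. The RefSeq start of ZNF217 lies inside the longer gene that GENCODE gives. Each is written 5′ to 3′ on the gene's strand. Capitals mark the ETS-type word CCGGAAG and the SP/KLF-type word GGGCGG, on either strand, and words that touch run together in the ZNF865 promoter.
ZNF217 (chr20:53593840-53594089, minus strand): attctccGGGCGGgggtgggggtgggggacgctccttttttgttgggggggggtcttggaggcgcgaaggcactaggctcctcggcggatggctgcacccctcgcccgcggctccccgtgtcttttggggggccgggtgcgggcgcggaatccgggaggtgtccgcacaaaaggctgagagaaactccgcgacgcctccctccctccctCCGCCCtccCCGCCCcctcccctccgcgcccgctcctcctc
ZNF865 (chr19:55605397-55605646, plus strand): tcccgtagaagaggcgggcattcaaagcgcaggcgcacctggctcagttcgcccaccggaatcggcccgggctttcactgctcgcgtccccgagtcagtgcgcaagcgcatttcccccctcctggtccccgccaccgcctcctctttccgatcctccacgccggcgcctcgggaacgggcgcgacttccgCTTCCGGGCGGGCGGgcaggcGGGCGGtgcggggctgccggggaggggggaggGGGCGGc
ZNF121 (chr19:9584505-9584754, minus strand): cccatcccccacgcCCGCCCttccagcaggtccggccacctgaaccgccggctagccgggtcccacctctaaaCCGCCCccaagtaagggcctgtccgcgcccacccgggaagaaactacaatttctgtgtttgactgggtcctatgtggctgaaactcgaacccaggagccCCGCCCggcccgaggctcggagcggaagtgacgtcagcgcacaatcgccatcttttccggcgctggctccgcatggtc
ZNF141 (chr4:337564-337813, plus strand): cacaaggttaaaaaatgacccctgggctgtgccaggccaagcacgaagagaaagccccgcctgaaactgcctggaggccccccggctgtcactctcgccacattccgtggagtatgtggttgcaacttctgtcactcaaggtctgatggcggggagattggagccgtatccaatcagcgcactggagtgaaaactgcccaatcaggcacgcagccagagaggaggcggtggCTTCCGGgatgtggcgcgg

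The promoter of ZNF217, which rose, has 72.4% GC and 25 CpG pairs, and that of ZNF865 has 73.6% GC and 32 CpG pairs. The promoter of ZNF121, which fell, has 65.6% GC and 22 CpG pairs, and that of ZNF141 has 59.6% GC and 13. Promoters of 110 of the 131 genes were found by symbol in the RefSeq table, and 35 of these windows hold no annotated exon. The median GC content of these 110 was 64.4%, against 58.0% for all 27305 promoters of the table, whatever the level of their genes. It was 70.4% for the 20 that belonged to genes that rose and 63.6% for the 43 that belonged to genes that fell.

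The word CCGGAAG was present, on either strand, in 32 of the 110 promoters (29.1%), and in 8.82% of all promoters. GGGCGG was present in 67 (60.9%, against 42.3% of all promoters) and CCAAT in 47 (42.7%, against 33.0%). Among the 43 promoters of genes that fell and the 20 of genes that rose, CCGGAAG was found in 11 and 10, GGGCGG in 20 and 16, and CCAAT in 24 and 6. TGACGTCA (6 promoters, 5.45%, against 1.77%), CACGTG (7, 6.36%, against 6.49%), the steroid receptor word AGAACA (6, 5.45%, against 12.4%) and ACTACAA, the core of the site bound by ZNF143 (6, 5.45%, against 2.64%), were rarer. These are counts of letters in a 250-base window, not of bound sites. The 110 promoters belong to genes chosen at 20 CPM, while all promoters include those of genes at any level. Promoters matched for expression were not compared, so the differences from all promoters may go with expression alone.

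The encoded proteins divided the set. A KRAB box was found in the translated canonical transcript (GENCODE release 44) of 54 genes, 73 coding genes had none, and 4 (ZNF731P, ZNF271P, ZNF542P and ZNF252P, which bear the P of pseudogenes) had no coding sequence. C2H2 fingers numbered 0 to 36 per protein, with a median of 10 in KRAB proteins and 7 in the others. The class follows 1 transcript, and a gene counted as lacking KRAB can have another transcript that encodes it.

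The counts by class were as follows. Of the 54 KRAB genes 26 were lower and 8 higher, and their median change was −0.13 on the log2 scale. Of the 73 coding genes without KRAB 20 were lower and 15 higher, and their median was −0.02. Falls and rises made 48.1% and 14.8% of the KRAB genes and 27.4% and 20.5% of the other coding genes. Over all genes tested at 20 CPM 21.1% fell and 31.6% rose. All 4 genes without a coding sequence fell, by 0.18 to 0.44; DESeq2 called 3 of them and the edgeR fit with offsets for GC content and length called 1, ZNF271P. The difference between the classes was not tested, since lists chosen with the results known are described by their counts. The median KRAB level relative to Control was −0.11, −0.16 and −0.16 in the 3 ENZ libraries, and that of the other coding genes −0.02, −0.02 and −0.03. The 8 KRAB rises numbered 5 when DESeq2 was used.

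The 400 ZNF genes under 20 CPM gave the same classes at lower levels. Of these, 347 passed the expression filter. Among 251 such KRAB genes 109 fell and 8 rose (median −0.26), and among 83 coding genes without KRAB 11 fell and 19 rose (median −9.11e-05). Over all genes tested 19.3% fell and 20.5% rose. The median GC content was 41.8% in these KRAB genes and 51.1% in the others. With offsets for GC content and length 84 of the KRAB genes fell and 11 rose (median −0.14). Of the others 13 fell and 14 rose in that fit (median −0.0097). At the edge of the set, just inside were ZNF500 (mean 20.02 CPM, log2 fold change 0.12), ZNF710 (20.5 CPM, 0.34) and ZNF513 (20.5 CPM, 0.14), and just outside were ZNF581 (19.99 CPM, 0.31), ZNF160 (19.8 CPM, −0.21) and ZNF654 (19.8 CPM, −0.29).

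Transcript GC content moved with these changes, and a difference in GC bias between the libraries cannot be told apart here from a change in the cells. Over the 131 genes Spearman's rho between the log2 fold change and the GC content of the longest transcript was 0.75 (Pearson's r 0.72), against 0.45 over the 8276 other genes at 20 CPM with a known GC content and 0.34 over all genes tested. These describe genes that share the same 6 libraries, and genes are not independent replicates. The genes that fell had a median GC content of 39.5%, those not called 48.6% and those that rose 57.7%.

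Of the 32 ZNF genes under 40% GC, 26 were lower and 0 higher, and their median log2 fold change was −0.42. By edgeR 1 of them was higher at an unadjusted p under 0.05, and DESeq2 called 0 higher, while the fit with offsets for GC content and length called 5 higher and 19 lower. The 1626 other genes at 20 CPM in that range had a median of −0.13, and 45.4% of them fell and 8.61% rose. Between 40% and 50% GC the ZNF genes (21 falls and 4 rises of 51) had a median of −0.13 and the other genes 0.02. Of those other genes 21.0% fell and 28.4% rose. Between 50% and 60% the medians were 0.06 for ZNF genes (3 falls and 8 rises of 29) and 0.10 for the others, of which 10.5% fell and 42.9% rose. Over 60% GC 11 of 19 ZNF genes rose and 0 fell (median 0.23, others 0.15), and in that range no ZNF gene was lower at an unadjusted p under 0.05 by edgeR or called lower by DESeq2, while the fit with offsets called 2 lower and 6 higher. Of the other genes over 60% GC 53.5% rose and 5.30% fell, beside 57.9% and 0% of the ZNF genes.

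The classes were also set side by side within ranges of GC content. Under 40% GC the median was −0.46 for 12 KRAB genes (11 falls) and −0.36 for 18 coding genes without KRAB (13 falls). Between 40% and 50% it was −0.14 for 26 KRAB genes (13 falls, 1 rise) and −0.11 for 23 others (6 falls, 3 rises). Between 50% and 60% it was 0.06 for 12 (2 falls, 4 rises) and 0.06 for 17 (1 fall, 4 rises). Over 60% it was 0.18 for 4 (3 rises) and 0.23 for 15 (8 rises). With offsets for GC content and length the medians of KRAB genes and others were −0.28 and −0.15 under 40%. Between 40% and 50% they were −0.095 and −2.19e-04 in that fit, and between 50% and 60% −1.07e-04 and −8.34e-04. Over 60% they were 0.04 and 0.08. ENZ libraries differed among themselves along the same axis. The median level of the 32 genes under 40% GC relative to Control was −0.28 in ENZ replicate 1, −0.41 in replicate 2 and −0.57 in replicate 3, while the 19 genes over 60% GC stood at 0.14, 0.27 and 0.24.

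**Figure D3:**
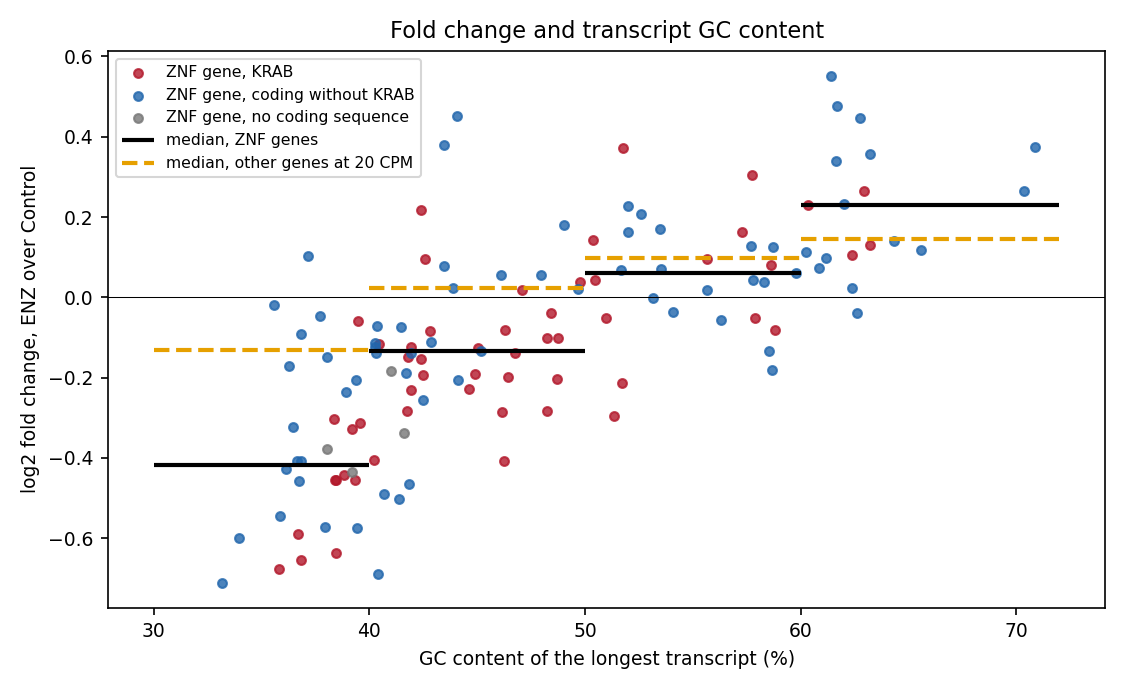
Log2 fold change (ENZ over Control) against the GC content of the longest transcript for the 131 ZNF genes, coloured by protein class. Solid lines are the medians of the ZNF genes in 4 ranges of GC content (−0.42, −0.13, 0.06 and 0.23) and dashed lines those of the other genes at 20 CPM (−0.13, 0.02, 0.10 and 0.15).

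**Figure D4:**
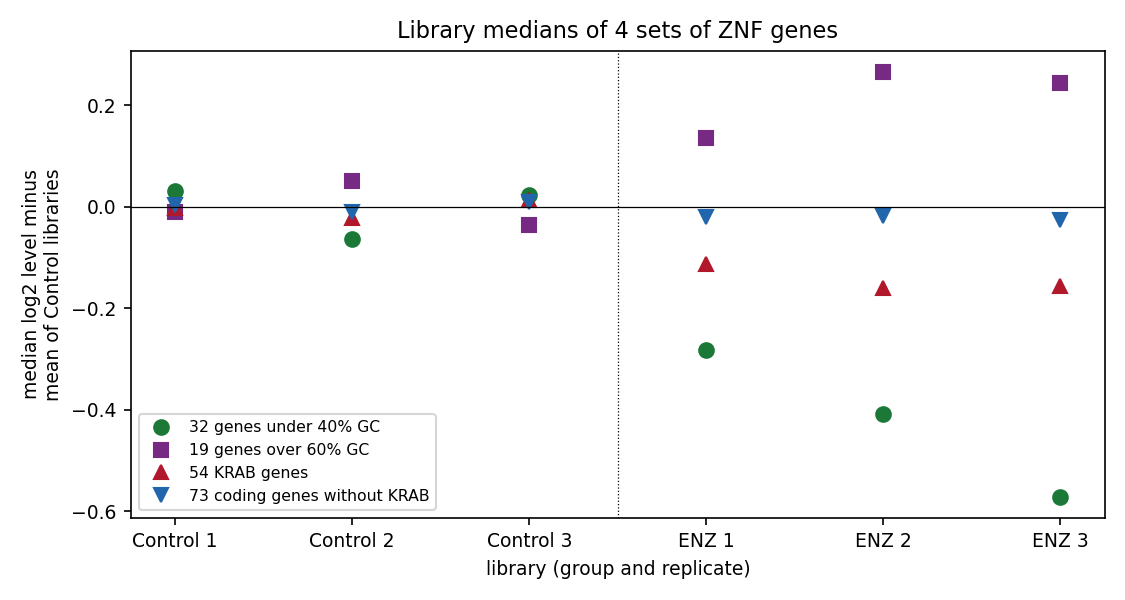
Median log2 level relative to the mean of the Control libraries (vertical axis) for 4 sets of ZNF genes in each library. Genes under 40% GC lie at −0.28, −0.41 and −0.57 in the ENZ libraries and genes over 60% GC at 0.14, 0.27 and 0.24, while the Control libraries lie between −0.06 and 0.05.

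When each library's trend with GC content and length was fitted and taken out as an offset, 43 ZNF genes fell and 23 rose (16.8% and 26.3% of all genes tested), and the median over the set was −0.05, where that of all genes was 0.03. In both fits 38 genes fell and 15 rose, and 0 were called in opposite directions. With the offsets the change was smaller by over 1.5 times, or of opposite sign, in 31 of 50 falls and 9 of 23 rises. It was larger by over 1.5 times in 1 rise. The sign changed in ZNF770 (−0.17 to 0.05) and ZNF282 (0.13 to −0.02), neither of them called with the offsets. ZNF117 went from −0.71 to −0.43, ZNF107 from −0.68 to −0.45, ZNF292 from −0.46 to −0.23, ZNF326 from −0.41 to −0.19 and ZNF710 from 0.34 to 0.20, all still called. In the KRAB class 22 fell and 6 rose with the offsets, and in the other coding genes 20 fell and 17 rose. The offsets also took up any change shared by genes of like GC content, whatever its origin. Spearman's correlation with GC content was 0.37 over the ZNF genes in that fit and −0.02 over all genes tested.

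Partners of corepressors and chromatin complexes moved in both directions, with 3 rises and 2 falls among 7 genes. Beside this and the role lists below, 31.6% of all genes tested at 20 CPM rose and 21.1% fell. Besides ZNF217, ZNF592 rose, a partner of the chromatin reader ZMYND8. It had 151, 156 and 151 CPM in Control and 164, 167 and 169 CPM in ENZ (0.16 ± 0.038; adjusted p = 0.00177 by edgeR). ZNF687, another partner of ZMYND8, had 69.2, 73.1 and 65.3 CPM in Control and 65.1, 72.2 and 71.0 CPM in ENZ, so its groups overlapped (95% interval −0.07 to 0.15).

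ZNF609, which binds the cohesin loader, rose by 0.21 ± 0.050. ZNF292 fell by 0.46 ± 0.076. ZNF644, a partner of the histone methyltransferases G9a and GLP, had 26.4, 26.3 and 27.0 CPM in Control and 25.0, 20.1 and 17.0 CPM in ENZ, a fall of 0.32 (adjusted p = 0.0299 by edgeR). That call ended without any 1 of the libraries other than ENZ replicate 1 (−0.33 to −0.20; adjusted p = 0.0542 to 0.107 in edgeR), and with the offsets for GC and length (−0.11; adjusted p = 0.19 in edgeR). ZNF335 had a log2 fold change of 0.10 (95% interval −0.02 to 0.21).

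Among 8 activators and other DNA binders 3 fell and 1 rose. ZNF146, a protein that consists almost wholly of zinc fingers, had 95.6, 88.5 and 101 CPM in Control and 73.8, 68.1 and 55.2 CPM in ENZ, a fall of 0.50 ± 0.10. ZNF281, which binds GC-rich sites, had 60.6, 53.8 and 61.2 CPM in Control and 45.3, 39.6 and 39.3 CPM in ENZ (−0.46 ± 0.060; adjusted p = 3.33e-06 by edgeR). Its relative ZNF148 had overlapping groups, at 56.7, 48.1 and 52.5 CPM in Control and 56.6, 50.9 and 44.2 CPM in ENZ (95% interval −0.20 to 0.16). With GC and length offsets ZNF148 was called higher, by 0.22 (adjusted p = 2.61e-04 in that edgeR fit).

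ZNF143, an activator that sits at many promoters, had 27.7, 26.7 and 27.5 CPM in Control and 24.3, 24.2 and 24.1 CPM in ENZ. The groups did not overlap, and the change of −0.14 did not pass the test (adjusted p = 0.0714 by edgeR; with library totals alone it did, adjusted p = 0.0255). Its paralog ZNF76 had a log2 fold change of 0.02 (95% interval −0.08 to 0.12). ZNF263, which carries SCAN and KRAB domains, fell by 0.21 ± 0.054. ZNF384, which binds runs of A, rose by 0.17 ± 0.059, a call that ended without Control replicate 1, Control replicate 3 or ENZ replicate 2 (0.12 to 0.17; adjusted p = 0.068 to 0.178 in edgeR). Nor did it pass in edgeR on library totals (0.14; adjusted p = 0.0705), in the fit with offsets (0.12; adjusted p = 0.0654) or on FPKM values. ZNF24 had 0.10 (adjusted p = 0.0828 in edgeR), and a called rise of 0.15 without ENZ replicate 3 and of 0.30 with GC and length offsets.

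In the group that handles RNA, translation and ribosomes, 2 of 9 fell and 1 rose. ZNF326, of a complex that links elongation to splicing, had 64.6, 62.2 and 66.4 CPM in Control and 50.1, 48.0 and 44.1 CPM in ENZ (−0.41 ± 0.052; adjusted p = 2.05e-06 by edgeR). It fell beside ZNF638, and ZNF385A, which binds RNA and p53, rose. ZNF622, a factor of large ribosomal subunit maturation, had 46.4, 46.6 and 48.6 CPM in Control and 44.6, 46.5 and 47.1 CPM in ENZ (95% interval −0.11 to 0.11). ZNF598, the ubiquitin ligase that marks collided ribosomes, had a log2 fold change of 0.12 (95% interval 0.02 to 0.22; adjusted p = 0.0525 in edgeR).

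The remaining RNA genes had small differences that did not pass the test. The values were −0.10 for ZNF473, a factor of histone pre-mRNA processing, −0.07 for the nucleolar ZNF330, −0.07 for ZNF706 and 0.07 for ZNF346, which binds double-stranded RNA. ZNF207, a spindle protein that binds BUB3, had 176, 178 and 181 CPM in Control and 169, 161 and 160 CPM in ENZ. Its groups did not overlap, and its log2 fold change of −0.09 had an adjusted p of 0.0548 by edgeR. ZNF207 was called higher, by 0.14 with GC and length offsets (adjusted p = 0.00646 in that edgeR fit). It was called lower on library totals (−0.13; adjusted p = 0.00893 in edgeR) and without ENZ replicate 1 (−0.11; adjusted p = 0.012 in edgeR). On filtered log2(FPKM + 0.1) and log2(FPKM + 1) values it was also called lower (−0.13 and −0.12, each with adjusted p = 0.0315 by limma).

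The SUMO ligase gene ZNF451 had a log2 fold change of −0.05 (95% interval −0.18 to 0.09), and 0.15 with a call when the offsets were fitted. ZNF746, whose protein is degraded through parkin, had 0.04 (95% interval −0.06 to 0.15). None of the 3 genes of this mitosis, ubiquitin and SUMO list passed (edgeR 0 higher and 1 lower at an unadjusted p under 0.05, DESeq2 0), while the fit with offsets called 2 higher. ZNF503, a repressor of the NET family, rose by 0.23 ± 0.062 (adjusted p = 0.00486 by edgeR), a call that the fit with offsets for GC content and length did not keep (0.10; adjusted p = 0.126 in edgeR). An antisense gene overlaps its exons, and the library kit does not mark strand.

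Levels between genes are compared here as FPKM, which divides by gene length. The mean ran from 1.77 FPKM for ZNF141 to 43.1 FPKM for ZNF664, with a median of 5.14. After ZNF664 came ZNF768 (33.0), ZNF595 (31.4), ZNF789 (27.6) and ZNF622 (27.3). ZNF664 had 271, 263 and 279 CPM in Control and 285, 267 and 274 CPM in ENZ, groups that overlapped (95% interval −0.02 to 0.13). ZNF595, a KRAB gene of the chromosome 4 cluster, had 126, 125 and 132 CPM in Control and 119, 117 and 122 CPM in ENZ. Its log2 fold change was −0.06 (95% interval −0.14 to 0.03), and it was called higher, by 0.12, in the fit with offsets (adjusted p = 0.00947 in edgeR). ZNF789 fell by 0.14 ± 0.039, a call that ended without Control replicate 1 (adjusted p = 0.0599 in edgeR) or ENZ replicate 2 (adjusted p = 0.0506 in edgeR), and its exons overlap ZNF394.

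The genes were also grouped by position. Chromosome 19 held 33 of the 131 genes, of which 18 were lower and 5 higher (median −0.19), and the other chromosomes held 98, of which 32 fell and 18 rose (median −0.06). Beside these and the counts by position below, 21.1% of all genes tested at 20 CPM fell and 31.6% rose. The median GC content was 42.8% on chromosome 19 and 46.4% elsewhere. With the offsets 13 genes on chromosome 19 fell and 3 rose (median −0.11). Elsewhere 30 fell and 20 rose in that fit (median −0.02). On chromosome 16, 4 of 13 rose and 3 fell. Grouping genes less than 1 Mb from the next gave 12 neighbourhoods of at least 3 genes, and those described here were picked after their values were seen. On chromosome 10 (37776526 to 38150293) ZNF248, ZNF33A and ZNF37A all fell, by 0.44 to 0.46. On chromosome 7 (64307459 to 65006684) ZNF736, ZNF107 and ZNF117 all fell, by 0.41 to 0.71.

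On chromosome 19 (52594060 to 53580269) 5 of 6 fell, by 0.28 to 0.33, and ZNF83 had −0.19 (adjusted p = 0.242 in edgeR). With the offsets 3 of these 6 were called lower. On chromosome 4 (53286 to 499156) ZNF141 and ZNF721 fell while ZNF595 did not pass the test. At chromosome 16 (30378106 to 31084196) ZNF48, ZNF768 and ZNF747 rose, and ZNF764, ZNF689 and ZNF646 had 0.08, 0.10 and 0.06. Neighbours shared GC content as well as position: the chromosome 10 genes had 38.4% to 39.3% GC and those at this site of chromosome 16 had 55.6% to 62.7%. The 11 genes at the end of the long arm of chromosome 19 (55605647 to 58475436), with 41.6% to 70.9% GC, went both ways (5 falls and 4 rises, −0.41 to 0.48).

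**Figure D5:**
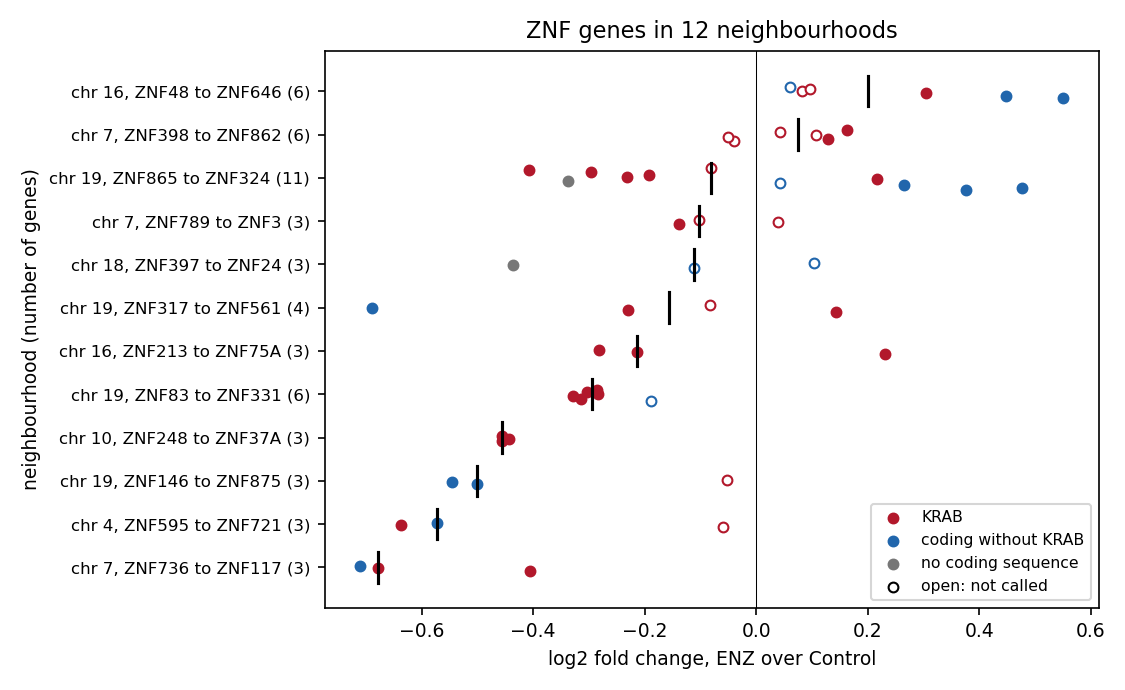
Log2 fold change (ENZ over Control, horizontal axis) of the ZNF genes in each of 12 chromosomal neighbourhoods, ordered by their median (black bar). Filled points passed an adjusted p under 0.05. The 3 genes of the chromosome 10 neighbourhood lie between −0.46 and −0.44, and the 6 of the chromosome 16 neighbourhood of ZNF48 between 0.06 and 0.55.

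The machinery that KRAB proteins recruit went both ways. Of 24 genes of this list 7 rose and 7 fell (29.2% each), and the median log2 fold change was −0.05. Over all genes tested at 20 CPM 31.6% rose and 21.1% fell. TRIM28, the corepressor bound by the KRAB domain, rose by 0.14 (860 to 928 CPM; adjusted p = 0.00306 in edgeR), and SETDB1 had 0.06 (adjusted p = 0.398 in edgeR). The largest rises were in POGZ (0.23), a binder of heterochromatin proteins, and in the deacetylase gene HDAC1 (0.22). The largest falls were in the remodelling factor genes SMARCAD1 (−0.47 ± 0.068) and ATRX (−0.46 ± 0.060).

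ATRX acts with ZNF274 and SETDB1 in placing H3K9 methylation over the final exons of ZNF genes. ZNF274 had a fall of 0.30 ± 0.059, and it, TRIM28 and SETDB1 were singled out after their values were seen. SMARCAD1 and ATRX have 37.1% and 36.9% GC, in the range where most ZNF genes fell. Both stayed called lower in the fit with offsets for GC content and length.

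Of 17 tested genes of the LSD1-CoREST-CtBP list 8 rose and 0 fell, with a median of 0.11. By edgeR 0 of them were lower at an unadjusted p under 0.05, and DESeq2 called 7 higher and 0 lower, while the fit with offsets called 9 higher and 1 lower. Over all genes tested 20.5% rose, and over those at 20 CPM 31.6%. RCOR2, a CoREST subunit, rose by 0.64 ± 0.13 from a low level (3.90, 3.28 and 4.68 CPM in Control, 5.36, 6.35 and 6.33 CPM in ENZ). GFI1, which brings LSD1 to DNA and is itself a zinc-finger protein, rose by 0.50 ± 0.084 (9.06 to 12.5 CPM). HDAC1 and HDAC2 belong to both lists.

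Other zinc-finger families gave a comparison by name. Of 40 tested ZBTB genes 10 rose and 8 fell (median 0.01), of 15 ZFP genes 3 rose and 3 fell (0.02), of 17 ZSCAN genes 1 rose and 1 fell (8.55e-04), and of 6 ZKSCAN genes 2 rose and 1 fell (0.04). Of 14 KLF genes 3 rose and 6 fell (−0.10). Over all genes tested 20.5% rose and 19.3% fell. Of 6 SP genes edgeR called 0 (1 lower and 0 higher at an unadjusted p under 0.05) and DESeq2 called 0, while the fit with offsets called 2 higher. The differences between these families and the ZNF genes were not tested.

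The unstranded counts leave some genes uncertain. Exons of 53 of the 131 genes overlap those of another gene in the table, and for 40 at least 1 of the overlapping genes lies on the opposite strand. Among the 78 genes with no such overlap 32 were lower and 11 higher (median log2 fold change −0.12), and among the 53 with an overlap 18 were lower and 12 higher (median −0.06). Over all genes tested at 20 CPM 21.1% fell and 31.6% rose. The median GC content was 42.6% without an overlap and 48.2% with one. With offsets for GC content and length the medians were −0.044 without an overlap and −0.075 with one. Within a group the levels were close: the median coefficient of variation over the 131 genes was 4.39% in Control and 5.72% in ENZ.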

How the data were processed

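Poly(A) RNA from 6 samples was made into libraries with an unstranded NEBNext Ultra kit, per the labels' protocols. Alignment and counting tools named in the submitters' processing notes are HISAT2 2.0.5 and HTSeq 0.6.1, beside DESeq2 1.20.0 and GRCh38; annotation and strand setting: not given in the sources used here. Raw gene counts and FPKM values were deposited by the authors, and each deposited FPKM value equalled the count over 1 length per gene and over the library total. Genes without a symbol (9849) held 0.875% of the counts and stayed in the fits.

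Counts were fitted with edgeR 4.0.16 (R 4.3.3; TMM, default filter, robust quasi-likelihood F test, group only), adjusted by Benjamini-Hochberg over all genes tested. The code was tested on simulated counts. SE is the absolute log2 fold change over the square root of F. Alternatives used DESeq2 1.42.0, limma 3.58.1 (voom, and log2(FPKM + 1) or log2(FPKM + 0.1) for genes of at least 1 FPKM), other scalings, filters and cutoffs, a replicate block, GC and length offsets (natural splines, 4 degrees of freedom) and each library left out. Positions, GC and coding sequences came from GENCODE release 44 (GRCh38; 37817 identifiers found). KRAB means F.DV...F...EW in the first 300 residues with at most 2 of 6 fixed residues different.

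Genes named are the 10 largest called rises and falls without overlap, the 5 highest by FPKM, the role lists, 3 on each side of 20 CPM, 3 uncalled genes with the narrowest intervals, and the 2 largest called changes in each direction of 2 pathway lists. The set and lists were chosen with earlier results of these data known. Pairs of libraries within a group differed by more than sampling noise (chi-square per degree of freedom 1.99 to 6.77), and each counted as 1 replicate. A count of 0 allows up to 3 counts, 0.0999 to 0.112 CPM, for counting error only.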

Additional observations from a re-analysis of the deposited data

How the results depend on the processing

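Falls outnumbered rises in the ZNF genes in all 18 alternative fits. Counts of falls ran from 40 to 59 and of rises from 18 to 25 when 1 library was left out, and the median from −0.11 to −0.07. Values that moved were as follows, and the cause was not tested. The median was −0.13 on library totals, −0.13 on log2(FPKM + 0.1), −0.054 with GC and length offsets and −0.054 with these and the replicate block. On log2(FPKM + 1) without a filter 12 genes rose, 2 of them KRAB, and 17 KRAB genes fell. KRAB rises numbered 5 in DESeq2, on library totals and on log2(FPKM + 1) and log2(FPKM + 0.1) values, and 5 to 7 with 1 library left out. A cutoff of 10 CPM gave 264 genes (37 rises, 116 falls, median −0.15), 40 CPM gave 55 (11, 18 and −0.039), and 20 CPM in Control alone gave 141 (19, 63 and −0.14). Leaving out genes with exon overlaps, chosen after seeing the data, gave 11 rises and 32 falls, from fewer genes.

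Same-numbered libraries did not deviate together (r = 0.02, −0.01 and −0.05), and not every library correlated best with its own number. These values cannot show whether same-numbered libraries shared a day or a batch. With the replicate block 23 genes rose and 51 fell.

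Of 1080 log2 fold changes of the 60 named genes over these fits, 990 kept their direction and side of the threshold and 35 changed sign. None of those 35 was of a gene called in the reported fit. With offsets (and with offsets and block) they were ZNF595 0.12 (0.12), ZNF687 −0.073 (−0.072), ZNF335 −0.0389 (−0.0395), ZNF148 0.22 (0.21), ZNF76 −0.065 (−0.065), ZNF330 0.099 (0.10), ZNF706 0.082 (0.082), ZNF598 −0.066 (−0.065), ZNF207 0.14 (0.14), ZNF451 0.15 (0.15) and KDM1A 0.010 (0.0095). ZNF622 was 0.0070 in DESeq2 and 0.0021 with no filter on low counts. ZNF76 was −0.016 on library totals, −0.016 on log2(FPKM + 0.1) and −0.015 on log2(FPKM + 1) values, filtered or not. With 1 library left out, ZNF622 ran from −0.021 to 0.030, ZNF148 from −0.10 to 0.068, ZNF76 from −0.0078 to 0.048, ZNF451 from −0.11 to 0.033 and KDM1A from −0.048 to 0.0051.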
